A study of Mus musculus with 8 samples.

Results

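Replication initiation was described at 8 genes of the B cell receptor and of AID targeting in CH12, a lymphoma line of mouse B cells: Cd79a, Cd79b, Cd22, Cd74, Cd83, Il4ra, Pim1 and Bcl6, out of 22367 protein-coding genes of the GENCODE M1 annotation (genome build mm9, NCBIM37). A locus was the gene with 20 kb on either side, and an initiation site (IS) belonged to it when it overlapped the locus by at least 1 bp. The loci held 12 of the 39116 ISs in the table that compares Rif1KO with WT cells, and 27 of the 129937 ISs in the table that compares Rif1KO_shMcm6 with Rif1KO_shLacZ cells. The study used short nascent strand sequencing (SNS-seq) to ask how the loss of RIF1, and of the helicase subunit MCM6 in RIF1-null cells, alters the use of ISs. Per the labels, the 8 libraries fell into 4 groups of 2: WT cells, Rif1KO cells, and Rif1KO cells that carry a short hairpin RNA against Mcm6 (Rif1KO_shMcm6) or against LacZ, a bacterial gene that serves as control (Rif1KO_shLacZ). All groups were CH12 cells cultured under stimulation with IL4, CD40 and TGF beta. Both hairpin groups lacked RIF1 and went through lentiviral infection and puromycin selection, and no hairpin is named for WT and Rif1KO cells, so the control is matched for hairpin and infection only in the comparison of the hairpin groups. The RIF1-null cells were clonal derivatives, and the clone used for SNS-seq is not given in the sources used here.

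The B cell receptor is a membrane immunoglobulin held in a complex with CD79A and CD79B, whose tails pass the antigen signal to kinases inside the cell, and CD22 dampens that signal. AID is the enzyme that deaminates cytosine in the immunoglobulin genes of activated B cells and starts class switching and somatic hypermutation; it also acts at a set of other highly transcribed genes, which makes those genes sites of mutation and translocation in B cell lymphoma. SNS-seq enriches short newly made strands that an RNA primer protects from an exonuclease, and a site where more cells start replication gathers more reads. The assay measures neither RNA nor AID activity, so the B cell identity of the cells, the loss of RIF1 and the depletion of MCM6 could not be checked from these values.

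Densities are given as reads and as RPM, the reads of an IS scaled so that the ISs of a table sum to 1000000, with 1 value per condition in which both libraries are pooled. There is therefore no replicate error and no test across cultures. Intervals are 95% exact intervals on the reads and cover counting error only, since the libraries are pooled. They take each read as independent, so they are too narrow where reads include PCR copies. WT and Rif1KO cells had 3350255 and 3724571 reads inside ISs, against 21071351 for Rif1KO_shLacZ and 23602750 for Rif1KO_shMcm6, with medians of 73, 82, 141 and 160 reads per IS. Levels are compared within a table only, because the tables were scaled separately. A log2 fold change is the treated minus the control log2 RPM. An IS or locus past 1.5-fold, the threshold used in the study, has a log2 fold change beyond 0.58 in size.

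Across the 8 genes, the differences between conditions were mostly small, and 2 gene loci had no IS to measure in the first table. In Rif1KO against WT cells, 0 of 12 ISs were higher by 1.5-fold, where 2.27% of all ISs of the table were, and 1 of 12 was lower, where 2.7% were. That IS lay just past the 3′ end of Cd79a. In Rif1KO_shMcm6 against Rif1KO_shLacZ cells, 1 of 27 ISs was higher, upstream of Pim1, against 4.8% of all ISs, and 1 of 27 was lower, at the start of Cd22, against 1.51% of all ISs. With 12 and 27 sites, counts of 0 or 1 are near these background shares. Both lower ISs were called in the control only, and over ISs called in both conditions 0 of 6 and 1 of 16 passed 1.5-fold. Summed over each locus, 0 of 6 loci with an IS passed 1.5-fold in Rif1KO cells, against 0.552% of 11773 protein-coding gene loci higher and 2.75% lower. Of 7 loci in the hairpin comparison, 0 passed it, against 0.546% of 17596 loci higher and 0.205% lower.

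**Figure D1:**
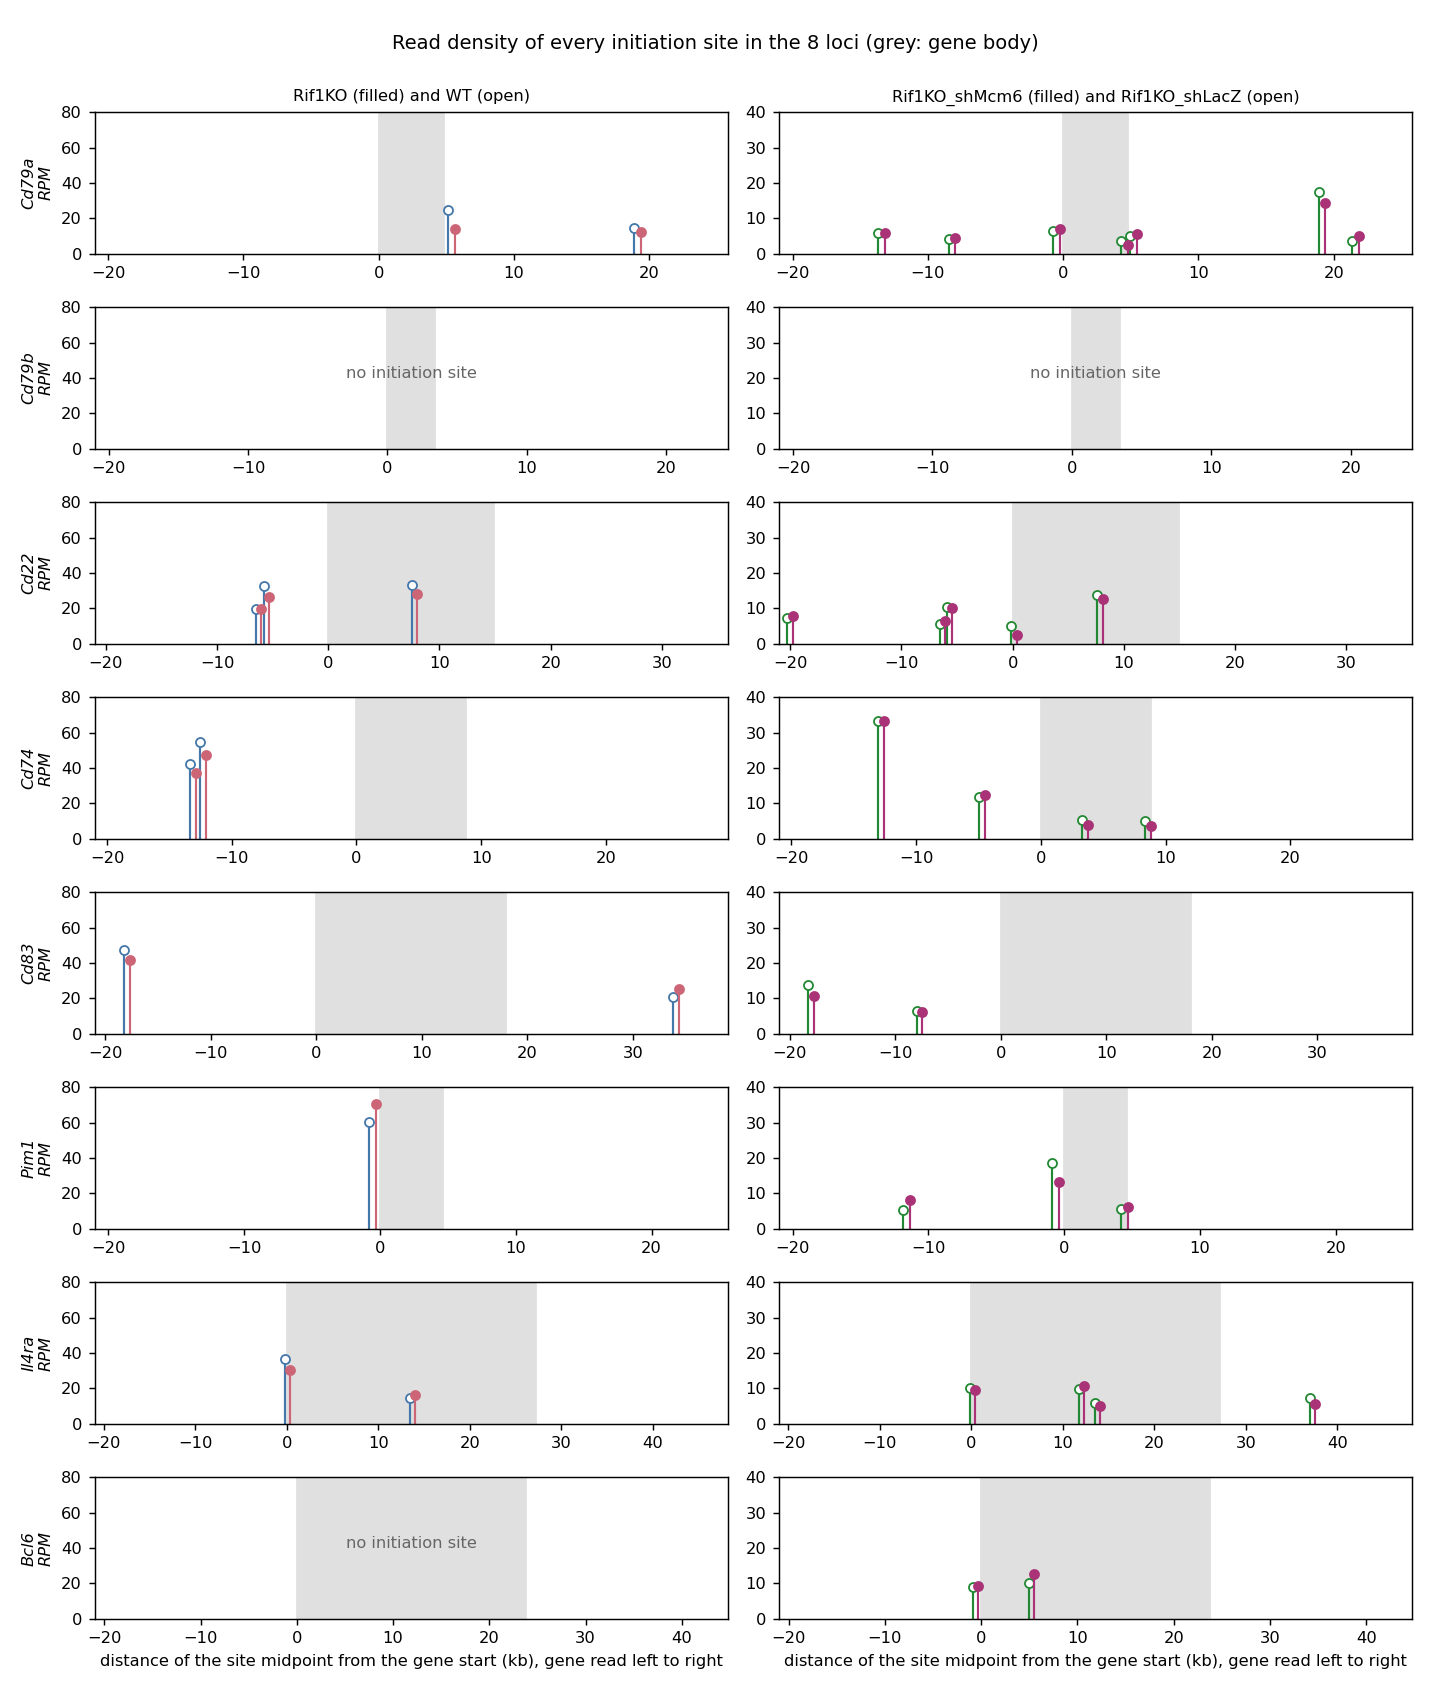
Read density (RPM, vertical axis) of each IS at the 8 loci against the distance of its midpoint from the gene start (kb, horizontal axis), with each gene read left to right and its body shaded grey. The left column shows WT (open) and Rif1KO (filled), the right column Rif1KO_shLacZ (open) and Rif1KO_shMcm6 (filled), with a different vertical scale in each column. For legibility, open points are moved slightly to the left of the midpoint and filled points slightly to the right. Cd79b has no IS in either table and Bcl6 none in the first, while the highest points are the IS at the Pim1 promoter in the left column and the IS upstream of Cd74 in the right.

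Cd79a (ENSMUSG00000003379.7, chr7:25682400-25687216, + strand) encodes the CD79A chain of the receptor complex. It had the lowest fold change of the 6 measured loci after RIF1 loss. Its 2 ISs together held 130 reads in WT and 97 in Rif1KO cells (38.8 and 26.0 RPM). The log2 fold change of the locus was -0.58 (95% interval -0.97 to -0.18), a fold of 0.671 that stopped just short of 1.5-fold and lay at percentile 2.95 among gene loci with an IS. It was the only one of the 6 loci whose interval excluded 0, which 18.5% of all gene loci did. The 43 ISs within 500 kb of the locus had a median of -0.14 and ranged from -0.62 to 0.36, with 2 of them lower by 1.5-fold. Most of the difference came from one IS at chr7:25687593-25688012, 377 bp past the end of Cd79a and over the transcription start site (TSS) of Arhgef1, the neighbouring gene. It had 82 reads in WT and 52 in Rif1KO cells (4.61 and 3.80 log2 RPM), a log2 fold change of -0.81 (-1.34 to -0.29) and 1.75-fold lower density. From percentile 60.7 among ISs in WT cells it moved to percentile 7.09 in Rif1KO cells. The IS was in the WT list of called ISs and not in the Rif1KO list, yet both lists from hairpin-carrying Rif1KO cells held it. It thus entered the table through WT, the group where it was denser, so neither its interval nor that of the locus is support for a difference. The other IS, in an intron of Arhgef1, lay 14158 bp past the end of Cd79a and 149 bp from a protein-coding TSS. It had 48 and 45 reads, with a difference of -0.25 (-0.87 to 0.37) that its interval does not set apart from 0. With flanks of 50 kb in place of 20 kb the fold change of the locus was -0.17. Both ISs overlapped Arhgef1 and neither overlapped Cd79a, so the locus value describes the downstream flank and not the Cd79a gene itself.

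The lower IS is shown because it is the only member site past 1.5-fold after RIF1 loss. The stretch comes from mm9 (NCBIM37), is written 5′ to 3′ on the strand of Cd79a, and has in capitals the match to a G-quadruplex motif. This motif was 4 runs of at least 3 G, or of C for the other strand, with 1 to 7 bases between runs. The stretch of 300 bp had 61.3% G or C, 19 CG and 3 AGCT, and the match lies towards its 3′ end.
Cd79a 3′ flank chr7:25687631-25687930 (+ strand): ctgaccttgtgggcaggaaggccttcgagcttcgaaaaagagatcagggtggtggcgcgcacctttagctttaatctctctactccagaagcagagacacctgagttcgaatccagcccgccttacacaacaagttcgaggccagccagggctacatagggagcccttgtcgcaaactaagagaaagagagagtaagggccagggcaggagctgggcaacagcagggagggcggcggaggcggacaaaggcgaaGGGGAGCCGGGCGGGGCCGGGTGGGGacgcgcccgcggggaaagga

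In the hairpin comparison, the same locus held 7 ISs with 975 reads in Rif1KO_shLacZ and 1060 in Rif1KO_shMcm6 cells (46.3 and 44.9 RPM), and the log2 fold change was -0.04 (-0.17 to 0.08). The sum was made of sites with values of either sign. The densest, at chr7:25701108-25701970 over an Arhgef1 exon, had 369 and 340 reads and a log2 fold change of -0.28 (-0.50 to -0.07). A second IS in Arhgef1, at chr7:25703792-25704192, went the other way, with 75 and 118 reads and 0.49 (0.06 to 0.93), but was in the Rif1KO_shMcm6 list only, the group where it was denser, so its interval is no support for a difference. Inside Cd79a itself only the IS in its last exon was present, with 74 and 58 reads and -0.52 (-1.04 to 0.00), and it appeared in the Rif1KO_shLacZ list only. The promoter IS, which ended 151 bp before the gene start, had 137 and 167 reads and 0.12 (-0.21 to 0.46). Of the other upstream ISs, the one beside the start of Rps19, a gene for a ribosomal protein, had 126 and 138 reads and -0.03 (-0.39 to 0.33), and the one in Rps19 exons had 88 and 107 reads and 0.12 (-0.30 to 0.54). The IS 64 bp past the gene end, which overlapped the one that was lower in Rif1KO cells, had 106 and 132 reads and 0.15 (-0.23 to 0.54). The locus value depends on which sites enter, since the gene body by itself gave -0.52 and the median of the 7 ISs was 0.12.

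Cd79b (ENSMUSG00000040592.5, chr11:106172655-106176076, - strand) encodes the CD79B chain, the partner of CD79A. No IS of either table lay in its 43.4 kb locus, and none of the 4 lists of called ISs had one there. This is a common state in the first table, where 47.4% of protein-coding gene loci had no IS, and a less common one in the second, where 21.3% had none. Both tables lacked an IS at 18% of gene loci. The closest IS was 38290 bp upstream in the first table, at the start of the sodium channel gene Scn4a, with 111 reads in WT and 115 in Rif1KO cells (-0.10). In the second it was 33894 bp upstream, also in Scn4a, with 91 reads in Rif1KO_shLacZ and 86 in Rif1KO_shMcm6 cells (-0.25). The locus had 50.6% G or C, almost the same as the 50.7% of the Cd79a locus. A locus without an IS may still have held reads, because isolated peaks were left out of the lists.

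Cd22 (ENSMUSG00000030577.6, chr7:31650421-31665361, - strand) encodes a sialic acid-binding inhibitory co-receptor. After RIF1 loss its 3 ISs held 287 reads in WT and 277 in Rif1KO cells (85.7 and 74.4 RPM), with a log2 fold change of -0.20 (-0.45 to 0.04) and a median of -0.07 for the 26 ISs within 500 kb. All 3 ISs were called in both conditions. The densest, inside the gene at chr7:31657332-31657876, had 111 and 105 reads (5.05 and 4.82 log2 RPM) and a difference of -0.23 (-0.63 to 0.17). The other two, upstream of the gene, had 110 and 98 reads (-0.32, -0.73 to 0.09) and 66 and 74 reads (0.01, -0.49 to 0.51). None of the 3 intervals excluded 0.

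After MCM6 depletion the Cd22 locus as a whole differed little, with 886 reads in Rif1KO_shLacZ and 928 in Rif1KO_shMcm6 cells (42.0 and 39.3 RPM; -0.10, -0.23 to 0.04) over 5 ISs. One of them, over the Cd22 TSS at chr7:31665063-31665424, had the lowest fold change of all 27 member ISs. It had 103 reads in Rif1KO_shLacZ and 55 in Rif1KO_shMcm6 cells (2.29 and 1.22 log2 RPM), 2.1-fold lower with a log2 fold change of -1.07 (-1.57 to -0.58). Its place among all ISs went from percentile 26 to percentile 0.12. It was a sparse site in both conditions, since the median IS had 141 and 160 reads. It was called in Rif1KO_shLacZ cells only, the group where it was denser, so its value is no support for a difference. The densest IS of the locus, inside the gene, had 293 and 297 reads and -0.14 (-0.38 to 0.09). The ISs 5332 and 6111 bp upstream had -0.04 and 0.22, and an IS in Mag, the neighbouring gene for a myelin glycoprotein, had 0.10, all with intervals that included 0. The Rif1KO_shLacZ list held all 5 ISs and the Rif1KO_shMcm6 list only the one in Mag. With the gene body by itself the fold change was -0.33.

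Both stretches of Cd22 are shown to set the site that was lower beside the densest single site of the locus. They come from mm9 (NCBIM37), are written 5′ to 3′ on the strand of Cd22, and have G-quadruplex motif matches in capitals. The first is the part of the start-site IS that lies inside the gene. It stops short of the TSS, because annotated UTR bases were left out. The match is C-rich on the gene's strand there and G-rich in the gene body. They had 49% and 53.3% G or C.
Cd22 part of the start-site IS chr7:31665063-31665254 (- strand): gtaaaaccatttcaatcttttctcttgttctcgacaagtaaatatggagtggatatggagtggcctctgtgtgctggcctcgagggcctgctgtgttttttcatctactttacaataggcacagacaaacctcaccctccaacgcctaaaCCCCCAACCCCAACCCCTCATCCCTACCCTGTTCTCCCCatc
Cd22 gene body chr7:31657454-31657753 (- strand): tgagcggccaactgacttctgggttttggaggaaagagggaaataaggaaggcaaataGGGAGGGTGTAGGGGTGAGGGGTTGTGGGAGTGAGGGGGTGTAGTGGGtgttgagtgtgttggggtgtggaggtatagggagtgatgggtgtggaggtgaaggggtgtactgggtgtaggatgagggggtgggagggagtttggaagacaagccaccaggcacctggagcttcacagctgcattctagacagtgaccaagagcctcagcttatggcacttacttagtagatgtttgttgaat

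Cd74 (ENSMUSG00000024610.8, chr18:60963502-60972300, + strand) encodes the invariant chain, a chaperone of MHC class II molecules. Its locus had the highest read density per kb among the members in all 4 conditions, and most of it came from an intergenic region that ended 11837 bp upstream. In the first table that region held 2 ISs. The denser, at chr18:60950700-60951665, had 184 reads in WT and 177 in Rif1KO cells (5.78 and 5.57 log2 RPM; -0.21, -0.51 to 0.10), and the other had 141 and 138 (-0.18, -0.53 to 0.17). The locus had 97.0 and 84.6 RPM, a log2 fold change of -0.20 (-0.43 to 0.03), against a median of -0.10 for the 25 ISs within 500 kb.

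In the second table one IS of 1843 bp, at chr18:60949733-60951575, covered this region. With 703 reads in Rif1KO_shLacZ and 789 in Rif1KO_shMcm6 cells, it was at 5.06 log2 RPM in both, a difference of 0.00 (-0.15 to 0.15), and at percentile 99.8 of the table in Rif1KO_shLacZ cells. It was present in each of the 4 lists. A further upstream IS had 248 and 294 reads (0.08, -0.17 to 0.33). The 2 ISs inside Cd74 were both sparser and both lower in Rif1KO_shMcm6 cells. The intronic one had 109 and 92 reads (-0.41, -0.82 to 0.01), and the one in the last exon had 108 and 82 reads (-0.56, -0.99 to -0.13) and was in the Rif1KO_shLacZ list only, as was the intronic one. Both ISs inside Cd74 thus entered the table through the group where they were denser, so their lower values are no support for a difference. The locus fold change was -0.06 (-0.17 to 0.06). The gene body by itself, which is these 2 ISs alone, had -0.48, and the median over the 4 ISs was -0.20.

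Cd83 (ENSMUSG00000015396.2, chr13:43880476-43898499, + strand) encodes a surface marker of activated B cells and mature dendritic cells. No IS lay inside the gene in either table. In the first table the ISs lay 17641 bp upstream and 15827 bp downstream, with 159 and 70 reads in WT and 156 and 95 in Rif1KO cells. Their log2 fold changes of -0.18 (-0.51 to 0.15) and 0.29 (-0.17 to 0.75) opposed each other, and the locus value was -0.02 (-0.28 to 0.24). Both were in the Rif1KO list and neither in the WT list, although the upstream IS stood at percentile 94.6 of all ISs in WT cells (5.57 log2 RPM). For that site, absence from the list did not go with low density. After MCM6 depletion the locus had 423 reads in Rif1KO_shLacZ and 401 in Rif1KO_shMcm6 cells (20.1 and 17.0 RPM), and its log2 fold change of -0.24 (-0.44 to -0.04) was the lowest of the 7 loci. The 62 ISs within 500 kb had a median of -0.18, close to this value. The upstream IS accounted for it, with 290 and 256 reads (3.78 and 3.44 log2 RPM; -0.34, -0.59 to -0.10), whereas an IS 7400 bp upstream had 133 and 145 reads (-0.04, -0.39 to 0.31).

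Il4ra (ENSMUSG00000030748.7, chr7:132695785-132722986, + strand) encodes the alpha chain of the receptor for IL4, one of the agents in the culture. In the first table its TSS carried an IS at chr7:132695546-132696123 with 123 reads in WT and 113 in Rif1KO cells (5.20 and 4.92 log2 RPM; -0.28, -0.66 to 0.11). A second IS in an intron had 48 and 61 reads (0.19, -0.38 to 0.77), and the locus had a log2 fold change of -0.13 (-0.44 to 0.19). Neither IS was in the WT list, and the one at the TSS was at percentile 87.5 of all ISs in WT cells. The hairpin comparison had 4 ISs. That at the TSS had 213 reads in Rif1KO_shLacZ and 225 in Rif1KO_shMcm6 cells (3.34 and 3.25 log2 RPM; -0.08, -0.36 to 0.19), and one at an alternative start had 207 and 255 (0.14, -0.13 to 0.41). The intronic IS and one 9756 bp past the gene had -0.22 and -0.33, with intervals that included 0. The locus value was -0.09 (-0.24 to 0.07), the same as the median of -0.09 over the 67 ISs within 500 kb.

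Pim1 (ENSMUSG00000024014.6, chr17:29627757-29632390, + strand) encodes a serine/threonine kinase that promotes survival, a proto-oncogene first known as an integration site of leukaemia virus. It was the one member with a positive locus value after RIF1 loss. A single IS at its promoter, chr17:29626770-29627695, which ended 62 bp before the gene, had 203 reads in WT and 263 in Rif1KO cells (5.92 and 6.14 log2 RPM). This was the densest member IS of the table, at percentiles 97.6 and 98.7 of all ISs. Its log2 fold change of 0.22 lay at percentile 91.2 among gene loci, but the interval of -0.05 to 0.49 included 0, and with flanks of 50 kb the value was 0.03. The 24 ISs within 500 kb had a median of -0.09.

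The promoter IS went the other way after MCM6 depletion. It had 395 reads in Rif1KO_shLacZ and 312 in Rif1KO_shMcm6 cells (4.23 and 3.72 log2 RPM), 1.42-fold lower with a log2 fold change of -0.50 (-0.72 to -0.29). These comparisons use different cells and controls, so the opposite signs are given side by side and their difference was not tested. An IS 11301 bp upstream had 113 and 191 reads (2.42 and 3.02 log2 RPM) and was 1.51-fold higher (0.59, 0.25 to 0.94), the only member IS past 1.5-fold in that direction. On the log2(RPM + 1) scale it no longer passed. The IS in the last exon had 119 and 148 reads (0.15, -0.21 to 0.51). With these sites the locus was at -0.11 (-0.27 to 0.05), with 627 and 651 reads, and both the median over its 3 ISs and the gene body by itself gave 0.15.

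The promoter site is shown because it was the densest member IS of the first table. The stretch comes from mm9 (NCBIM37), is written 5′ to 3′ on the strand of Pim1, and has G-quadruplex motif matches in capitals. It had 24 CG and 3 AGCT in 300 bp and 64.3% G or C.
Pim1 promoter chr17:29627083-29627382 (+ strand): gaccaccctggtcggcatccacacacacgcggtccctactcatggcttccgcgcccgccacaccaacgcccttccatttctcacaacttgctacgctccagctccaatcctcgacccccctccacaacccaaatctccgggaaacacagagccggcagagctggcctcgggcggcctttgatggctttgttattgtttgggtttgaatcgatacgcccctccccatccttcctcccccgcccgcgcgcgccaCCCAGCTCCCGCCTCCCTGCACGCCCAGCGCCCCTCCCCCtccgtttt

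Bcl6 (ENSMUSG00000022508.5, chr16:23965138-23988938, - strand) encodes the transcriptional repressor of germinal centre B cells. It had no IS in the first table, so RIF1 loss could not be assessed at the gene. The nearest IS of that table lay 35218 bp downstream, at chr16:23929538-23929920 in an intron of Rtp2, with 42 reads in WT and 84 in Rif1KO cells (3.65 and 4.50 log2 RPM; 0.85). It was in the Rif1KO list and not in the WT list, where the nearest IS lay 60487 bp away. Having entered through the group where it was denser, its value is no support for a difference. The whole neighbourhood was higher in Rif1KO cells. All 22 ISs within 500 kb had positive log2 fold changes, from 0.10 to 0.94 with a median of 0.34, 4 of them past 1.5-fold. The median over the 2174 ISs of chromosome 16 was 0.33, so this was a level shared by the chromosome and not particular to Bcl6. No input DNA entered the peak calls, so DNA content and use of ISs cannot be told apart there.

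The second table held 2 ISs at Bcl6, both called in both conditions. The denser, in an intron at chr16:23983270-23984201, had 212 reads in Rif1KO_shLacZ and 299 in Rif1KO_shMcm6 cells (3.33 and 3.66 log2 RPM; 0.33, 0.07 to 0.59). The promoter IS, 313 bp upstream, had 190 and 219 reads (3.17 and 3.21 log2 RPM; 0.04, -0.25 to 0.33). Together they gave 402 and 518 reads (19.1 and 21.9 RPM) and a log2 fold change of 0.20 (0.01 to 0.39), the only positive value among the 7 loci at this flank, at percentile 92.4 of gene loci. With flanks of 50 kb Bcl6 had 0.07, Il4ra 0.06 and Cd79a 0.04. Here the chromosome was near 0, with a median of 0.01 over 4972 ISs, and the 39 ISs within 500 kb had 0.06. The centre of the intronic IS, the site behind the Bcl6 value, is shown from mm9 (NCBIM37), 5′ to 3′ on the strand of Bcl6. It has no match to the G-quadruplex motif in these 300 bases and so no capitals, holds 13 CG and 3 AGCT, and has 46.7% G or C.
Bcl6 intron chr16:23983586-23983885 (- strand): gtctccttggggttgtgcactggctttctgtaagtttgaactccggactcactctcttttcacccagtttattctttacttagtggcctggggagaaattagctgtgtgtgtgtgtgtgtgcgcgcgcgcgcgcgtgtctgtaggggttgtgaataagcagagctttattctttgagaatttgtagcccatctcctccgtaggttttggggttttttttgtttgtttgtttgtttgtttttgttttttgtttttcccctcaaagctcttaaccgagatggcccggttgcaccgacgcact

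**Figure D2:**
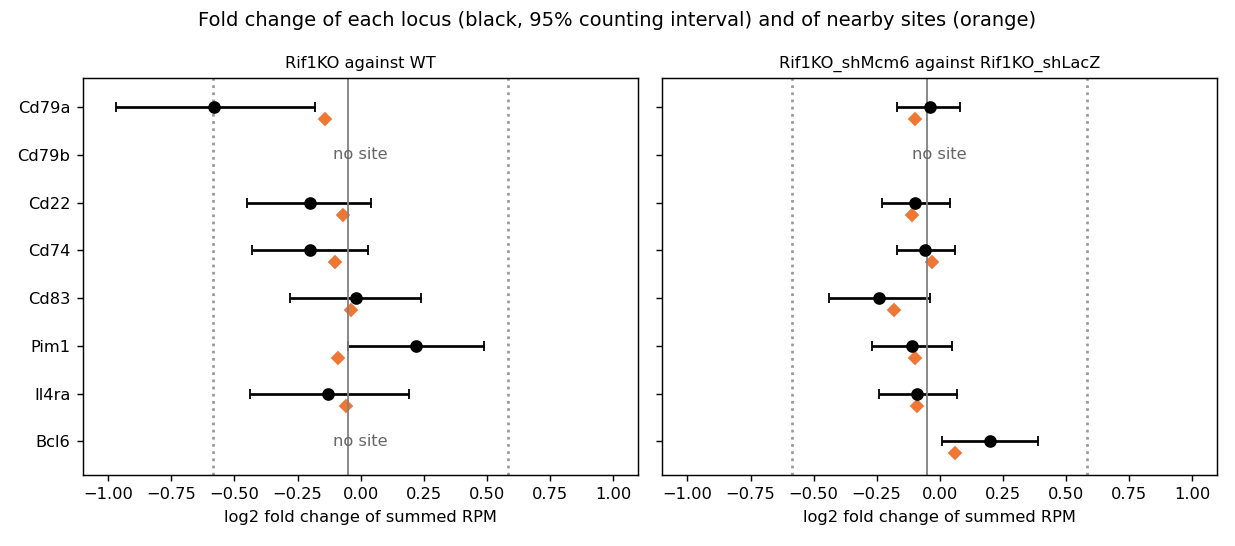
Log2 fold change of RPM summed over the ISs of each locus (black points, bars are 95% counting intervals) and the median of single ISs within 500 kb (orange diamonds), for Rif1KO against WT (left) and Rif1KO_shMcm6 against Rif1KO_shLacZ (right). The solid line marks the median of all protein-coding gene loci, -0.05 in both comparisons, and dotted lines mark 1.5-fold. Cd79a has the lowest value on the left at -0.58, which was -0.17 with flanks of 50 kb, and its interval overlaps those of Cd22, Cd74, Cd83 and Il4ra. Bcl6 has the only positive locus value on the right at 0.20, which was 0.07 with flanks of 50 kb.

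Set side by side, 5 of 6 loci had a value below 0 after RIF1 loss and 6 of 7 after MCM6 depletion, where 61.2% and 64% of all gene loci with an IS did and the median locus was at -0.05 in both. With flanks of 50 kb, Cd22 had -0.04 after RIF1 loss and Cd83 -0.04 after MCM6 depletion, both within their intervals at 20 kb. The Cd79a value of -0.17 after RIF1 loss lay just outside its interval. Over single sites, the 12 ISs of the first table had a median log2 fold change of -0.20, from -0.81 to 0.29, against -0.02 for all ISs in protein-coding gene loci and 0.02 for all ISs, with an SD of 0.29. Of these, 8 (66.7%) were below 0, against 53.5% of ISs in gene loci and 47.5% of all ISs. The interval of 1 of the 12 excluded 0, as did 10.1% of the intervals of all ISs. The 27 ISs of the second table had a median of -0.03, from -1.07 to 0.59, against -0.04 for ISs in gene loci and -0.01 for all ISs, with an SD of 0.32. Of these, 51.9% were below 0, against 55.6% and 51.6%. The intervals of 8 of the 27 excluded 0, against 23.9% of all ISs. Among loci, 2 of 7 intervals excluded 0 in the hairpin comparison, against 35.2% of all gene loci, so these counts are near the background.

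**Figure D3:**
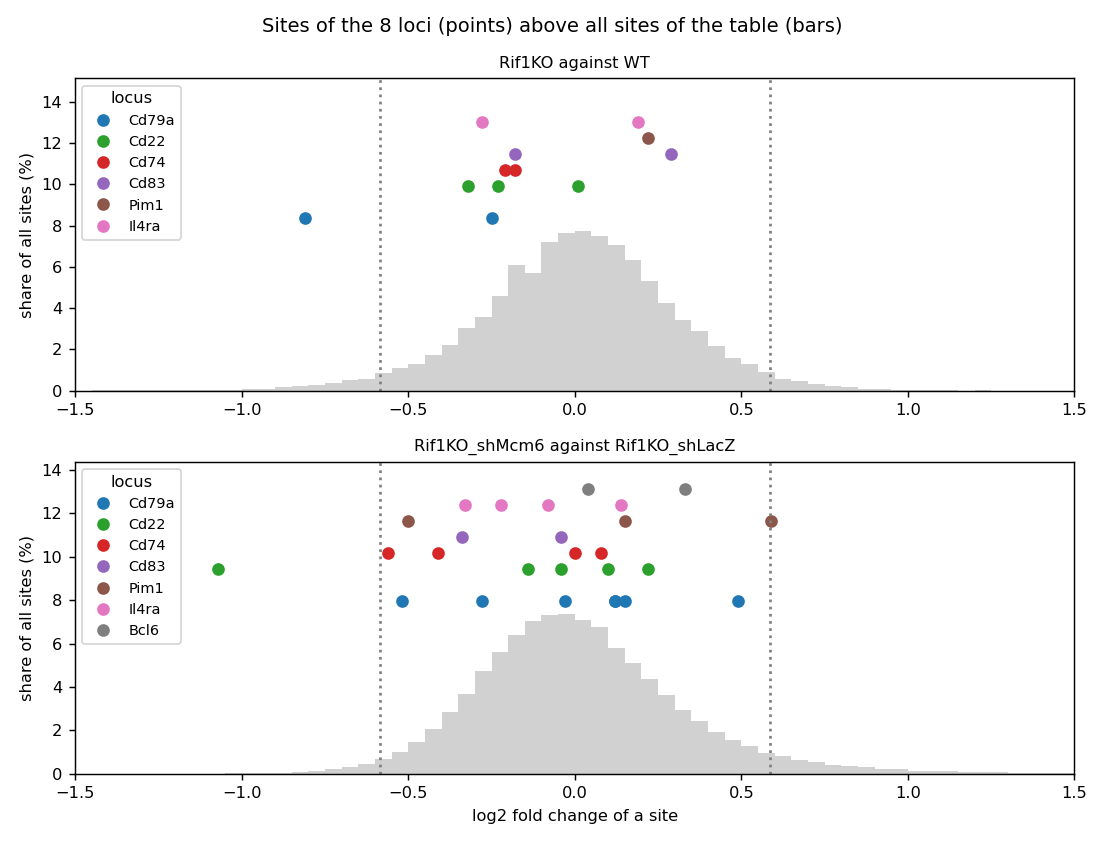
Log2 fold change of every IS of the member loci (coloured points, 1 row per gene, height without meaning) above the distribution of all ISs of the same table (grey bars, percent of ISs per bin of fold change), with dotted lines at 1.5-fold. In the upper panel (Rif1KO against WT) 1 of 12 points lies left of the lower line, and in the lower panel (Rif1KO_shMcm6 against Rif1KO_shLacZ) 1 of 27 lies beyond each line.

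Inside the genes, the ISs of the hairpin comparison were mostly called in the control only. The 10 ISs inside 6 of the genes were all in the Rif1KO_shLacZ list and 4 (40%) were in the Rif1KO_shMcm6 list, where 78.1% and 88.4% of all ISs inside protein-coding genes were. The 4 called in both were those in the Pim1 last exon (0.15), the Bcl6 intron (0.33), and the alternative start (0.14) and intron (-0.22) of Il4ra, with values on either side of 0. The other 6 lay in Cd79a, Cd22, Cd74 and Il4ra and had log2 fold changes from -1.07 to -0.08. These 6 entered the table through the Rif1KO_shLacZ list, the group where they were denser, so their lower values are no support for a difference. This grouping was made after the values were known and is a description.

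Read density per kb of locus gave an order of the genes within each condition. In WT cells Cd74 (1.99 RPM per kb) stood first, followed by Cd22 (1.56), Pim1 (1.36), Cd83 (1.18), Cd79a (0.866) and Il4ra (0.76). Only the steps from Cd74 to Cd22 and from Cd83 to Cd79a were larger than counting error. In Rif1KO cells the order was Cd74 (1.73), Pim1 (1.58), Cd22 (1.35), Cd83 (1.16), Il4ra (0.695) and Cd79a (0.581), and only the step from Cd83 to Il4ra exceeded counting error. The order in Rif1KO_shLacZ cells was Cd74 (1.14), Cd79a (1.03), Cd22 (0.765), Pim1 (0.667), Il4ra (0.49), Cd83 (0.346) and Bcl6 (0.299), and in these deeper libraries every step exceeded counting error. Rif1KO_shMcm6 cells had the same order from Cd74 (1.09) to Il4ra (0.461), with Bcl6 (0.344) then above Cd83 (0.293). Cd79a thus stood in the lower levels of the first table and second in the other, where 7 ISs in place of 2 entered its sum.

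The lists of called ISs gave presence per condition. The 8 loci held 7 ISs of the WT list, 11 of the Rif1KO list, 25 of the Rif1KO_shLacZ list and 18 of the Rif1KO_shMcm6 list. Of all 39116 ISs of the RIF1 comparison, 34.1% were absent from the WT list and 14.2% from the Rif1KO list, so a larger Rif1KO list was the state of all ISs and not of the members alone. Over all ISs of the hairpin comparison 23.1% were absent from the Rif1KO_shLacZ list and 11.1% from the Rif1KO_shMcm6 list, the opposite order to that of the members. Cd83 and Il4ra had 0 in WT and 2 each in Rif1KO cells, which made up the whole difference between those lists, while Cd79a, Cd22, Cd74 and Pim1 had as many in one as in the other. Between the hairpin groups Cd22 went from 5 to 1, Cd74 from 4 to 2 and Il4ra from 4 to 2, Cd79a went from 5 to 6, and Cd83, Pim1 and Bcl6 kept the same number. A call was not the same as a level. Of the 5 member ISs absent from the WT list, 2 had a WT density at or above the median of called ISs (4.65 log2 RPM), and of the 9 absent from the Rif1KO_shMcm6 list, 3 did (2.81 log2 RPM). Of all ISs absent from these lists, 12.2% and 25.6% were at or above that median.

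**Figure D4:**
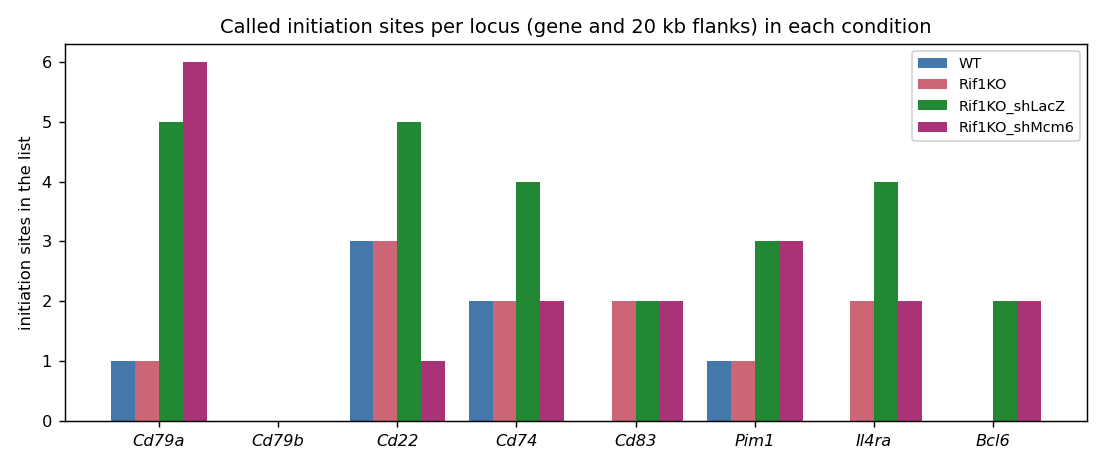
Number of called ISs (vertical axis) that overlap each locus in the lists of the 4 conditions (colours), by gene (horizontal axis). Cd79b has none in any list, Cd83 and Il4ra have none in WT, and the largest difference between the hairpin groups is at Cd22, with 5 and 1.

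The member ISs lay near a TSS more often than other ISs of gene loci and had a higher GC content. Of the RIF1 comparison 4 of 12 (33.3%) and of the hairpin comparison 10 of 27 (37%) lay within 1 kb of a protein-coding TSS, where 10.8% and 8.3% of all ISs in gene loci did. The TSS could be that of any gene. Both Cd79a-locus ISs of the first table counted through a TSS other than that of Cd79a. In the second table that locus gave the most such ISs, mainly near starts of Arhgef1 and Rps19. Over windows of 500 bp, median G and C content was 55.5% and 52.2% against 48.4% and 46% for ISs in gene loci. The G-quadruplex motif, spelled out above and searched on both strands, was in 12 of 12 windows (100%) and in 21 of 27 (77.8%), against 75.1% and 51.5% of ISs in gene loci. The motif AGCT, which reads the same on both strands and is a preferred AID hotspot, was in 91.7% and 85.2% of the windows against 84.9% and 86.1%, hence no more often in the second table and little more in the first. A match is a description of the letters and does not show a structure or AID action. Of the 12 ISs of the first table, 11 overlapped an IS of the second, against 83.5% of all ISs.

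The other genes of both pathways were read from 2 lists, of 34 genes of B cell receptor signalling and 24 known AID targets, 22 of which are annotated as protein-coding. Of the receptor list, 21 had an IS in the first table, with 0 past 1.5-fold in either direction, a median of -0.06 and 16 below 0, where all gene loci had 0.552% higher, 2.75% lower, a median of -0.05 and 61.2% below 0. The lowest was Cd79a, whose 2 ISs overlapped Arhgef1 and not Cd79a itself. Ptpn6, a phosphatase that acts with CD22, was highest at 0.09 (-0.07 to 0.25). In the hairpin comparison 31 had an IS, 0 passed 1.5-fold and the median was -0.07 with 23 below 0, where all gene loci had 0.546% higher, 0.205% lower, a median of -0.05 and 64% below 0. Inpp5d, an inositol phosphatase that limits receptor signalling, was lowest at -0.30 (-0.51 to -0.09) with 411 and 374 reads, and Cr2, a complement receptor of B cells, highest at 0.32 (0.07 to 0.57) with 226 and 316 reads. Btk, the kinase downstream of the receptor, Rel, a NF-kB subunit, and Cd79b had no IS there.

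Of the AID targets, 16 had an IS in the first table, with 0 higher and 1 lower by 1.5-fold, a median of -0.12 and 13 below 0, against 0.552% higher, 2.75% lower, a median of -0.05 and 61.2% below 0 for all gene loci. The lower one was Btg1, an antiproliferative gene on chromosome 10, with 1 IS of 76 reads in WT and 44 in Rif1KO cells (-0.94, -1.51 to -0.39). The median of all ISs of that chromosome was -0.36. Pim1 was the highest at 0.22. After MCM6 depletion 20 had an IS, 0 passed 1.5-fold, and the median of -0.05 was that of all gene loci, with 15 below 0 against 64% of all gene loci. Rhoh, a GTPase of lymphocytes, was lowest at -0.32 (-0.42 to -0.21) with 1617 and 1455 reads, and Bcl6 was highest at 0.20. Both lists share members with the 8 genes, and Cd79a and Cd79b stand in both. The lowest and highest loci of each list were picked by these same values, so their intervals are no support for a difference. Of all gene loci, 18.5% in the first table and 35.2% in the hairpin comparison had an interval that excluded 0.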

How the data were processed

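SNS-seq libraries of CH12 cells, 2 per group, were processed by the authors. Reads were trimmed with Trim Galore 0.6.4 and cutadapt 2.6 and aligned to mm9 with Bowtie 1.2.3, keeping unique alignments. Peaks were called per replicate with MACS without input, intersected between replicates, kept only inside ClusterScan clusters and merged per contrast. The deposited values are log2 RPM with both replicates pooled, and RPM here counts only reads that fell in ISs. Deposited columns of other numbers count the peaks merged into an IS. The authors' category of fold change was not used.

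Recovered reads were whole within a tolerance of 1e-06 for 100% of values. ISs overlapping a gene or its 20 kb flanks (GENCODE M1) by at least 1 bp were members. Intervals are exact 95% Clopper-Pearson (ratios) and Poisson (levels) intervals. Python 3.11.15, numpy 2.4.6, pandas 2.3.3, scipy 1.17.1, pysam 0.24.0 and matplotlib 3.10.9 were used, and the scripts were tested on simulated data. Genes and lists were chosen with earlier results of these data known. Named were all 8 genes, and at each the densest IS per table and every IS past 1.5-fold, and in the lists every locus past 1.5-fold, the lowest and the highest. Other ISs of the 8 loci were named to account for every member. Syk was matched through its synonym Sykb. Alternatives covered flanks, overlap, density filter, pseudocount, scaling, calls and thresholds.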

Additional observations from a re-analysis of the deposited data

How the results depend on the processing

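No paired analysis was possible because both libraries of a group had been merged into 1 deposited value, and fits without a replicate were not run for the same reason. Of 46 alternatives over the 10 main results, 28 moved by less than the margin set for them and 18 moved by more. The number of member ISs past 1.5-fold after RIF1 loss (1 of 12, 8.33%) was 0 of 3 without flanks, 2 of 31 (6.45%) with 50 kb flanks, 0 of 6 over ISs called in both conditions, 0 at 2-fold (0.286% of all ISs) and 4 at 1.2-fold (33.3%, against 32.5% of all ISs). After MCM6 depletion (2 of 27, 7.41%) it was 1 of 10 (10%) without flanks, 5 of 78 (6.41%, 4 higher and 1 lower) with 50 kb flanks, 1 of 21 with ISs under the lower quartile of density left out, 1 on the log2(RPM + 1) scale, 1 of 16 over ISs called in both conditions, 1 at 2-fold (3.7%, against 1.02%) and 11 at 1.2-fold (40.7%, against 34.7%). The median after MCM6 depletion (-0.03) was -0.18 without flanks and 0.09 over ISs called in both conditions. Without flanks the lists of WT, Rif1KO, Rif1KO_shLacZ and Rif1KO_shMcm6 held 1, 3, 10 and 4 ISs. Fewer ISs enter without flanks or with both calls required, and more with wider flanks. Centring on each chromosome or scaling without chromosomes 10, 15 and 16 moved none of these counts or medians by more than the margin. These alternatives could hardly have done so. The scaling shift was 0.01 and 0.00 in log2, and Bcl6, the only member on these chromosomes, had no IS in the first table. Over single loci, 61 of 70 alternatives stayed within the margin. The remaining 9 were at Cd79a, Cd22, Cd74 and Pim1, among them 0.10 for the Cd22 locus over ISs called in both hairpin conditions. Depth limits the first table most, where 1 read is worth 0.298 RPM in WT and 0.268 in Rif1KO cells, against 0.0475 in Rif1KO_shLacZ and 0.0424 in Rif1KO_shMcm6 cells.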
